A study of Mus musculus with 14 samples.

Results

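The genes described here are 40 cell proliferation genes, which act in DNA replication and mitosis and were taken as a measure of progenitor division in the olfactory epithelium of mouse pups. They were chosen by symbol from a list, and all 40 were found among the 51211 gene symbols of both deposited tables. All 40 also passed the filter on low values, a mean normalized count of at least 10, in both experiments. RNA was measured in whole olfactory epithelia of 14 mice at postnatal day 5 (P5), each mouse giving 1 library. In the Kir2.1 experiment, 3 mice carried the OMP-IRES-tTA allele and the tetO-Kir2.1-IRES-tauLacZ transgene, and the 3 control mice carried OMP-IRES-tTA alone. Both groups thus share the tTA allele, and the transgene, which codes for a potassium channel that holds the membrane potential low, is driven from the Omp locus and so in mature olfactory sensory neurons (OSNs), not in the dividing cells. The sample records call the transgenic mice Kir2.1-Off, a name that the study uses for adults fed doxycycline, whereas these pups were taken at P5. Kcnj2, the gene of this channel, had 986, 1074 and 1274 normalized counts in the control mice and 17926, 18530 and 24193 in the Kir2.1 mice, where it includes any reads of the transgene. In the PEA experiment, 4 wild type mice were exposed to the odor phenylethylamine (PEA) from birth to P5, and 4 wild type mice were not exposed. The records name C57BL/6 as the strain of all mice, and the methods of the study name CD-1 pups for the PEA experiment.

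OSNs are replaced throughout life by progenitors that lie at the base of the epithelium. Among these, globose basal cells are the ones that mostly divide, and in adults horizontal basal cells are a mostly quiet reserve. In pups the epithelium is still growing, so many cells are in cycle. During G1 the origin proteins Cdc6 and Cdt1 load the Mcm2 to Mcm7 helicase onto DNA, in S phase Pcna clamps the polymerase while Rrm1, Rrm2 and Tyms supply its precursors, and in G2 and mitosis cyclin B with Cdk1 starts division, the Aurora and Polo kinases and the centromere proteins align chromosomes, and Cdc20 and Ube2c let them part. The 40 genes are Cdc6, Cdt1, Gmnn, Cdc45 and Mcm2 to Mcm7 (licensing), Pcna, Rrm1, Rrm2, Tyms and Uhrf1 (synthesis), Ccne1, Ccne2, Ccna2, Ccnb1, Ccnb2 and Cdk1 (cyclins and their kinase), Plk1, Aurka, Aurkb, Birc5, Bub1 and Bub1b (mitotic kinases and checkpoint), Cdc20 and Ube2c (anaphase), Cenpa, Cenpe and Cenpf (centromere), Kif11, Kif20a, Kif23, Tpx2, Nusap1 and Prc1 (spindle and cytokinesis), and Mki67 and Top2a (chromosomes). In bulk samples such as these, fewer dividing cells and less of these RNAs per cell cannot be told apart. Nor can the cell types that held these RNAs, as the samples also gave markers of other cell types (below).

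Many cell cycle genes are known to share short promoter elements: E2F sites in genes of the G1/S transition, and the cell cycle homology region (CHR) with CCAAT boxes in genes of G2 and mitosis. RefSeq (GRCm38.p6) gave a promoter window of 250 bases before to 50 bases after the start for 33 of the 40 genes, in 36 windows. The searched words, on both strands, were TTTGAA for the CHR, CCAAT for the CCAAT box, and TTTCCCGC, TTTCGCGC, TTTGCCGC or TTTGGCGC for E2F. The CHR word was in 47.2% of the windows of the proliferation genes and 17.9% of all 32851 windows, the CCAAT word in 83.3% and 37.4%, and an E2F word in 22.2% and 2.26%. The E2F words were found for Cdc6, Cdk1, Cdt1, Mcm3, Mcm5, Mcm6, Mcm7 and Uhrf1, of which all but Cdk1 act in replication or its control. Such matches are letters in a window and not measured binding. The 4 windows printed here were picked from those of the 13 genes described one by one below. Windows with the most kinds of word came first, then those of genes with the smallest unadjusted p by limma in either comparison. They thus hold more of the words than some others: the window of Nusap1 held none, and those of Cenpe and Pcna only CCAAT. Cdk1 (chr10:69352863-69353162, minus strand) holds all 3 kinds, Cenpf (chr1:189688037-189688336, minus strand) and Mcm2 (chr6:88898731-88899030, minus strand) hold the CHR and CCAAT words, and Mcm5 (chr8:75109259-75109558, plus strand) holds CCAAT and 2 overlapping E2F words. Capitals mark the words, on either strand, so CCAAT is also written ATTGG.
Cdk1: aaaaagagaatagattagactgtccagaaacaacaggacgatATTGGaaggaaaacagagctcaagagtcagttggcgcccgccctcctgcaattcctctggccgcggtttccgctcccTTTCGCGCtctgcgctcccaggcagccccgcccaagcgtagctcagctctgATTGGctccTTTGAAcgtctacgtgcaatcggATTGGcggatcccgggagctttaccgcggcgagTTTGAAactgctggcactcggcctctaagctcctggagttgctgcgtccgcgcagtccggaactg
Cenpf: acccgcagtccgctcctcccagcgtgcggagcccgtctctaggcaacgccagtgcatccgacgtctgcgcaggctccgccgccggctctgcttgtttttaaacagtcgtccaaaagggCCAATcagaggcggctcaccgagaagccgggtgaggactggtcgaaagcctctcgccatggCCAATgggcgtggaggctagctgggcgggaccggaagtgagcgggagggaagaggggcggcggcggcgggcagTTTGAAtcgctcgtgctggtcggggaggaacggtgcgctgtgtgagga
Mcm2: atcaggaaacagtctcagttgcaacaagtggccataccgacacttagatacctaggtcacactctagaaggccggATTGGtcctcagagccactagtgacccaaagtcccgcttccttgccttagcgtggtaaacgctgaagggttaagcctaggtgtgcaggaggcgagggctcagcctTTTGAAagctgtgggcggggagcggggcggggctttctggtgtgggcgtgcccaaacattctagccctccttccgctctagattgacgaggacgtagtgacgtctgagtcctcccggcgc
Mcm5: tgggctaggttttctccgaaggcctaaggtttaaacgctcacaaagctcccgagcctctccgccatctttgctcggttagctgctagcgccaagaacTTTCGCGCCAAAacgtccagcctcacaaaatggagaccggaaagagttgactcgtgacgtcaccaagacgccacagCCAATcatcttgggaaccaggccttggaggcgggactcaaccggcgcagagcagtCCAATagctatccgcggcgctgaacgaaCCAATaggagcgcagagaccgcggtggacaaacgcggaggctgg

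The values are gene-level estimates scaled by the authors, called normalized counts here. They summed to between 33049111 and 34198478 per mouse in the Kir2.1 experiment and to between 11476120 and 12467331 in the PEA experiment, after scaling, so the depth of each library is unknown. Poly-A selection was used for the Kir2.1 experiment and depletion of ribosomal RNA for the PEA experiment. Control mouse 1 of the Kir2.1 experiment stood apart in vomeronasal receptor genes, with a mean log2 value of 3.76 against 1.02 to 1.10 in the other 5 mice, and in the PEA experiment this value ran from 0.77 to 3.60. Markers of globose basal cells were present in every group, with a sum over 9 genes of 35273 to 43678 in the control mice and 35449 to 42166 in the Kir2.1 mice, and of 6571 to 10444 and 8361 to 8686 in the unexposed and PEA-exposed mice. None of the 9 was at 0 in every mouse.

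The genes described one by one lie, on GRCm38 (whole genes), as follows: Mki67 at chr7:135689784-135716361, Top2a at chr11:98992943-99024189, Pcna at chr2:132249162-132253314, Cdk1 at chr10:69335146-69352938, Cenpf at chr1:189640606-189688086, Nusap1 at chr2:119618298-119651244, Mcm3 at chr1:20802968-20820312, Cenpe at chr3:135212537-135273611, Prc1 at chr7:80294450-80316259, Mcm2 at chr6:88883474-88898780, Mcm5 at chr8:75109569-75128439, Aurka at chr2:172356190-172370535 and Ccnb2 at chr9:70407692-70421547.

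All 40 proliferation genes were expressed in the control mice. Per kilobase of exon, Pcna had the highest level in both experiments, 2290 normalized counts in the Kir2.1 experiment and 530 in the PEA experiment, while Cdc6, the loader of the helicase, had the lowest level in the first (63.6) and Cdt1, its partner, the lowest in the second (17.4). The order of the levels per kilobase over the 40 genes had a Spearman rho of 0.63 between the experiments, which were scaled separately. As shares of each table, the 40 genes together made up 2440 ppm in the control mice of the Kir2.1 experiment and 2618 in those of the PEA experiment. Single genes were further apart. Plk1, a mitotic kinase, had a share 5.72 times as high in the poly-A libraries, Cdt1 5.04 times and Mcm2 3.17 times, while Ccne2, a cyclin of G1/S, had 0.44 times and Cenpf 0.489 times the share. The ratio rose with the GC content of the transcripts (rho = 0.78 over 40 genes, a description with no test) and fell with exon length (rho = -0.61), and the mice, library kit and read length differ between the experiments.

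The comparison of Kir2.1 mice with their controls asks whether RNA of cell division genes differs when OSNs are silenced. No proliferation gene was called: 0 of 40 passed an adjusted p of 0.05 (limma with Benjamini-Hochberg adjustment over 19807 genes, of which 0.353% passed), and the lowest adjusted p was 0.194. The median log2 fold change over the 40 genes was -0.01, beside 0.01 over all genes tested, with 19 genes higher and 21 lower. In 36 of the 40 genes the 95% interval of the difference lay within 0.5 of 0 on the log2 scale, and in all 40 within 1. At an unadjusted p under 0.05, 1 gene was higher and 1 lower, where 4.93% and 6.20% of all genes were. Fold changes here and below are on the scale of log2(normalized count + 1).

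Mki67, the antigen of cycling cells, had 6067, 7708 and 6389 normalized counts in the control mice and 6323, 8038 and 6333 in the Kir2.1 mice, so that the ranges of the groups overlapped in large part (log2 fold change 0.04, SE 0.13, 95% interval -0.27 to 0.34). Top2a, the topoisomerase that untangles replicated DNA, had 7482, 8504 and 6943 in the control mice and 7863, 8949 and 7855 in the Kir2.1 mice (0.11, SE 0.10, interval -0.12 to 0.33). Pcna had 5009, 5570 and 5906 in the control mice and 4949, 4694 and 5242 in the Kir2.1 mice (-0.15, SE 0.08, interval -0.34 to 0.05). Pcna thus had its 2 highest values in control mice, and its groups overlapped. Cdk1, the kinase of mitotic entry, had 1874, 2086 and 1983 in the control mice and 2212, 2128 and 1899 in the Kir2.1 mice (0.07, SE 0.08, interval -0.13 to 0.27).

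**Figure D1:**
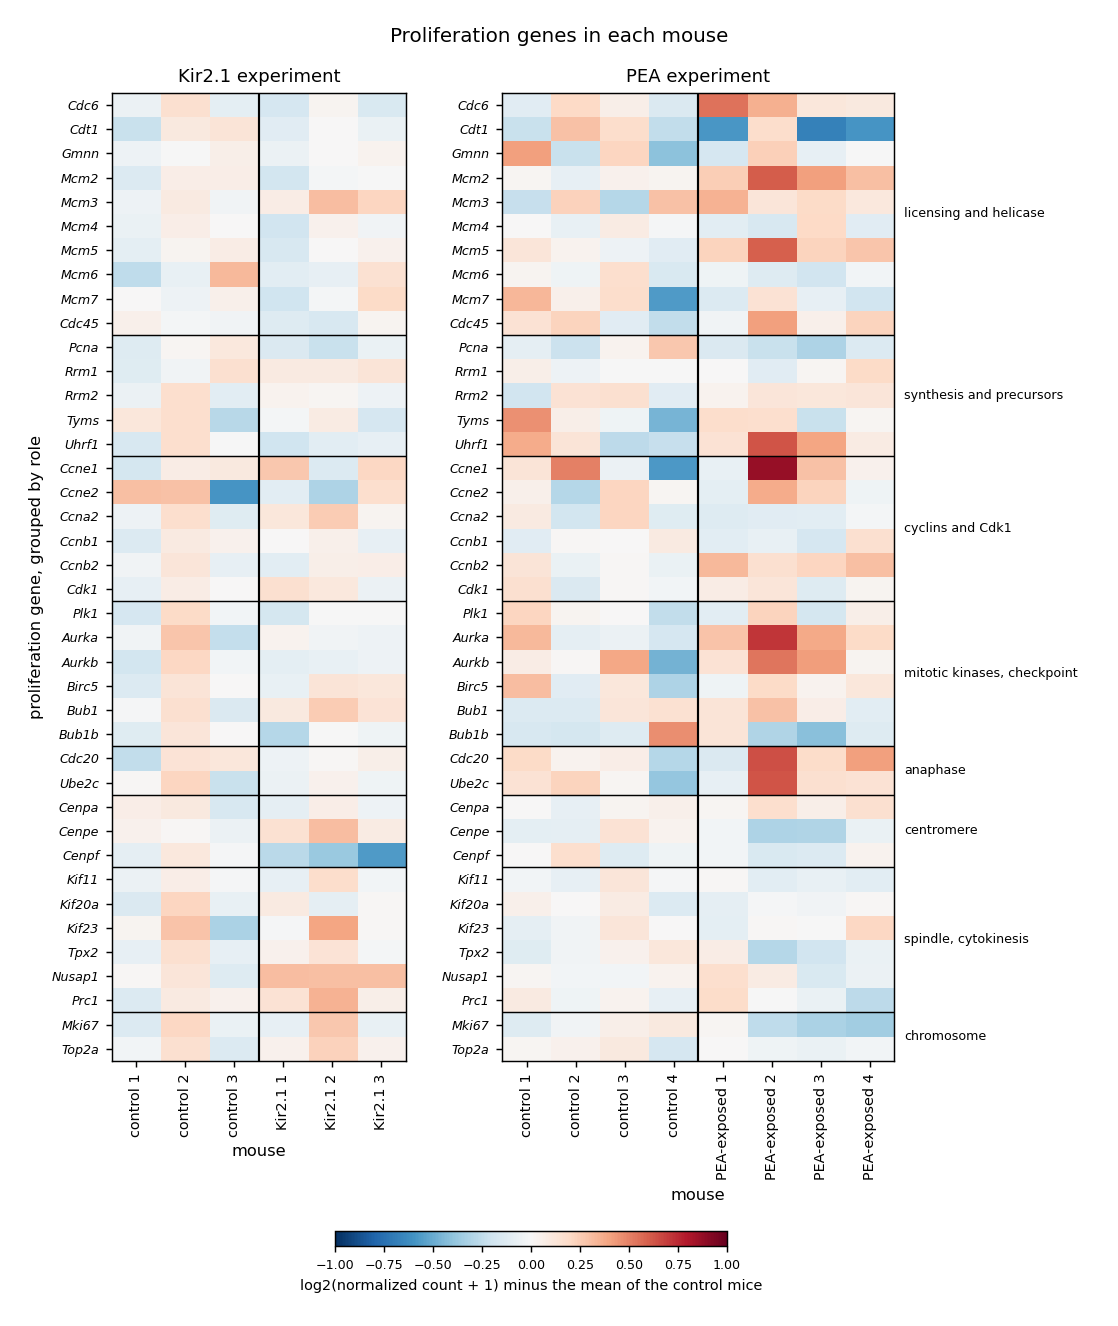
Heat map of the 40 proliferation genes (rows, grouped by role) in each mouse (columns), as log2(normalized count + 1) minus the mean of the control mice of the same experiment; blue is lower and red higher, on a scale from -1 to 1. Cenpf is blue in the 3 Kir2.1 mice and Nusap1 red in them, control mouse 2 of the Kir2.1 experiment is red in most rows, and PEA-exposed mouse 2 holds the most deep red cells of the PEA experiment.

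Among the genes of replication and the G1/S transition, 13 of 17 had lower values in Kir2.1 mice and 4 had higher ones, and none had an unadjusted p under 0.05. Over all 19807 genes tested, 10148 were higher and 9659 lower. The proliferation genes varied together between mice (below), so counts of direction here and in the next paragraph are not counts of independent genes. In the licensing group, 9 of the 10 genes had a negative fold change, between -0.10 and -0.01. Mcm3, a helicase subunit, was the exception, with 1911, 2108 and 1939 in the control mice and 2088, 2455 and 2305 in the Kir2.1 mice (0.20, SE 0.09, unadjusted p = 0.0510, adjusted p = 0.451 by limma). Its lowest Kir2.1 value lay between the control values. The other helicase subunits ranged from -0.07 for Mcm2 to -0.01 for Mcm7 and Mcm6. The 5 synthesis genes ranged from -0.15 (Pcna) to 0.11 (Rrm1), and the cyclins with Cdk1 from -0.08 (Ccne2) to 0.13 (Ccna2).

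Among the 23 genes of G2 and mitosis, 15 were higher and 8 lower. Cenpf, a kinetochore protein, had 2540, 2919 and 2680 in the control mice and 2244, 2096 and 1824 in the Kir2.1 mice, with no overlap. Its log2 fold change of -0.40 (SE 0.10, interval -0.63 to -0.17, unadjusted p = 0.00428) was the most negative of the 40, with an adjusted p of 0.194 by limma. Nusap1, which binds and bundles spindle microtubules, had 1130, 1218 and 1024 in the control mice and 1386, 1385 and 1381 in the Kir2.1 mice, again with no overlap (0.30, SE 0.08, interval 0.10 to 0.50, unadjusted p = 0.00846, adjusted p = 0.244 by limma). Cenpe, a kinetochore motor, had 1289, 1256 and 1201 in the control mice and 1388, 1545 and 1318 in the Kir2.1 mice, the last of the 3 genes whose groups did not overlap (0.18, SE 0.08, adjusted p = 0.505 by limma). Groups did not overlap, with the Kir2.1 mice higher, for 7.26% of all genes tested, and with the Kir2.1 mice lower for 9.04%. Prc1, a protein of the central spindle, had 2035, 2379 and 2304 in the control mice and 2475, 2838 and 2331 in the Kir2.1 mice (0.18, SE 0.10, adjusted p = 0.578 by limma). The 2 centromere genes beside Cenpf, Cenpe at 0.18 and Cenpa at -0.02, did not share its direction and size. All 6 spindle genes had positive fold changes, from 0.01 (Kif20a) to the 0.30 of Nusap1, and the mitotic kinases and checkpoint genes ranged from -0.11 (Bub1b) to 0.16 (Bub1).

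The proliferation genes varied together between mice of the same group in the Kir2.1 experiment, and much less so in the PEA experiment. After the group means were taken out, the median correlation over all pairs of the 40 genes was 0.41 over 6 mice in the Kir2.1 experiment, 0.59 within the genes of G2 and mitosis and 0.27 within those of replication. Control mouse 2 had the highest value of its group for 28 of the 40 genes, and Kir2.1 mouse 2 for 20. The mean log2 value over the 40 genes was 10.51, 10.69 and 10.53 in the control mice and 10.54, 10.63 and 10.59 in the Kir2.1 mice, so the spread within the control group was wider than the difference between groups. The median within-group SD of the 40 genes was 0.13 on the log2 scale, beside 0.18 over all genes tested. In the PEA experiment the corresponding median correlation was 0.08 over 8 mice. The same median over all genes tested was not computed, and the part of single mice in these correlations was not tested.

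Markers of some other cell types moved with the Kir2.1 groups, and those of others did not. All 9 markers of mature OSNs had lower values, with a median log2 fold change of -0.38. Their summed level was 95691 to 108229 in the Kir2.1 mice against 130050 to 144256 in the control mice. All 9 had an unadjusted p under 0.05, as had 6.20% of all genes in that direction, and 1 was called. The 10 markers of mesenchyme and cartilage had higher values (median 0.53, sums 58071 to 172904 in the control mice and 110229 to 154155 in the Kir2.1 mice), as had the 4 erythroid markers tested (median 0.86, sums over 5 genes of 8247 to 14075 and 15186 to 22885). Of these, 5 of 10 and 4 of 4 had an unadjusted p under 0.05, as had 4.93% of all genes in that direction. None of them was called. Every member was also higher for horizontal basal cells (5 genes, median 0.34, sums 3878 to 5895 and 4320 to 11125), endothelium (5 genes, median 0.41, sums 1217 to 1529 and 1503 to 2125) and immune cells (8 genes, median 0.24, sums 3471 to 3612 and 3833 to 4750), of which 0, 1 and 1 had an unadjusted p under 0.05. All 5 vomeronasal markers were lower (median -1.16, sums 18332 to 23356 and 16092 to 23251, 1 at that level), with control mouse 1 standing apart as above. The globose basal list had a median of 0.00, with none of 9 at an unadjusted p under 0.05. Markers of immature neurons (7 genes, median -0.04) and sustentacular cells (7 genes, median -0.04) also had none at that level. Genes of glands (6 genes, median 0.32), ensheathing glia (6 genes, median 0.24) and ciliated cells (5 genes, median 0.14) went both ways, with 0, 1 and 1 at that level. The part of these markers in the values of the proliferation genes was not tested. Without control mouse 1, which stood apart in vomeronasal genes, 0 of the 40 genes were called, 3 had an unadjusted p under 0.05 and the median was -0.02.

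The comparison of PEA-exposed with unexposed mice asks the same for odor input in the first days of life. No proliferation gene was called here either: 0 of 40 passed an adjusted p of 0.05 (limma, 17322 genes tested, of which 0.179% passed), and the lowest adjusted p was 0.151. The median log2 fold change was 0.02, beside -0.02 over all genes tested, with 23 genes higher and 17 lower. The 95% interval lay within 0.5 of 0 for 28 genes and within 1 for all 40. At an unadjusted p under 0.05, 4 genes were higher (Mcm2, Mcm5, Aurka and Ccnb2) and 0 lower, where 8.93% of all genes tested were higher and 6.04% lower. Leaving out control mouse 3, control mouse 4 or PEA-exposed mouse 3 left 2 such genes each time.

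Mki67 had 4090, 4365, 4663 and 4795 normalized counts in the unexposed mice and 4522, 3741, 3584 and 3505 in the PEA-exposed mice. Only PEA-exposed mouse 1 reached the unexposed range (-0.23, SE 0.11, interval -0.46 to 0.01, adjusted p = 0.344 by limma). Top2a had 4630, 4721, 4900 and 4078 in the unexposed mice and 4576, 4437, 4365 and 4482 in the PEA-exposed mice, all within the unexposed range (-0.03, SE 0.09, interval -0.23 to 0.16). Pcna had 1187, 1085, 1296 and 1519 in the unexposed mice and 1140, 1079, 1017 and 1150 in the PEA-exposed mice (-0.20, SE 0.11, interval -0.46 to 0.05). Cdk1 had 827, 668, 746 and 725 in the unexposed mice and 781, 803, 674 and 755 in the PEA-exposed mice, with full overlap (0.02, SE 0.10, interval -0.20 to 0.25).

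**Figure D2:**
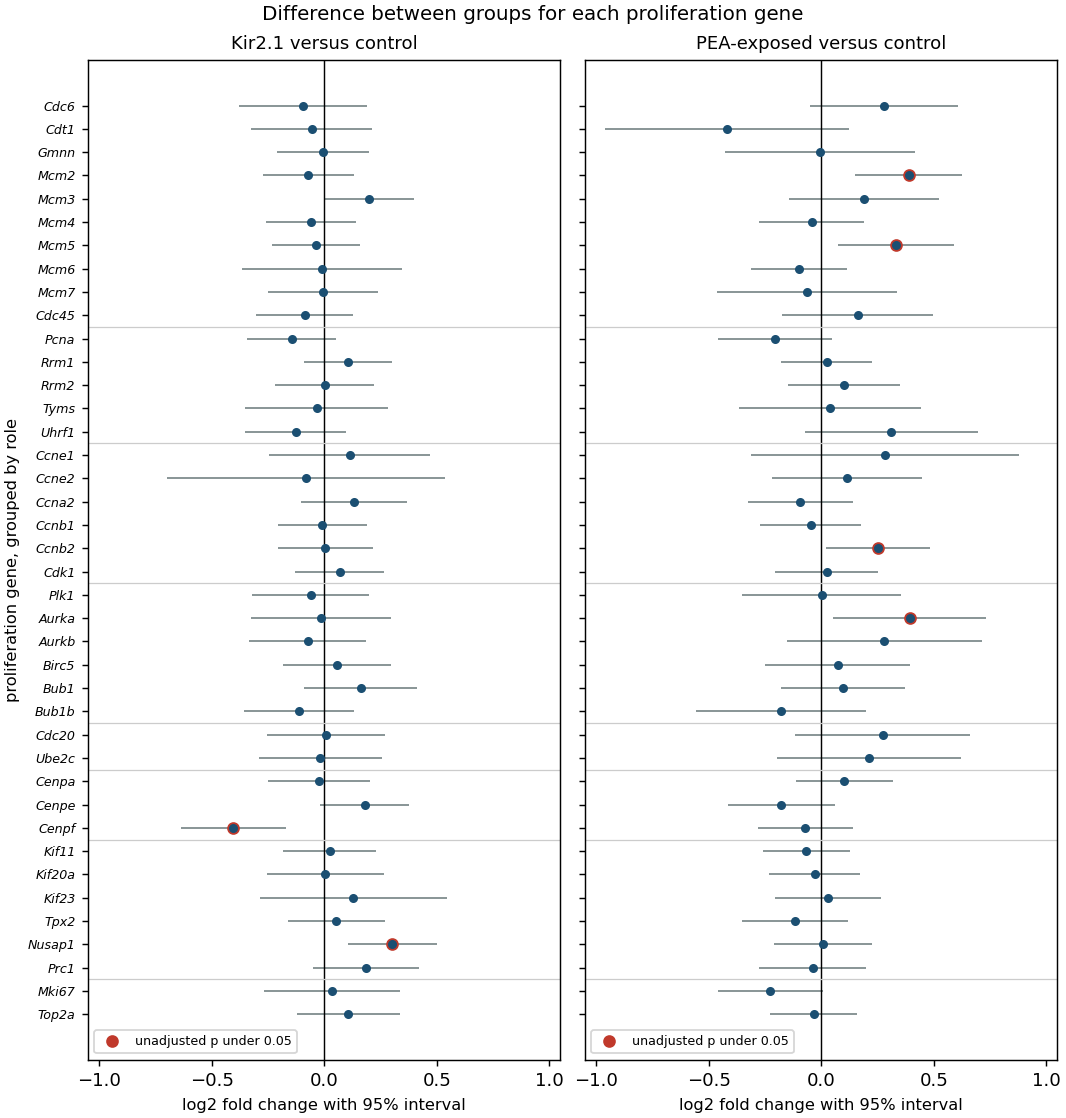
Log2 fold change (horizontal axis) with its 95% interval for each of the 40 proliferation genes (vertical axis, grouped by role), for Kir2.1 mice against their controls and PEA-exposed mice against theirs; red points have an unadjusted p under 0.05. The points lie between -0.40 and 0.30 on the left and between -0.42 and 0.39 on the right, and the intervals are on the whole wider on the right.

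In the licensing group, Mcm2 had 425, 396, 432 and 428 in the unexposed mice and 498, 639, 557 and 516 in the PEA-exposed mice, with no overlap (0.39, SE 0.11, interval 0.15 to 0.63, unadjusted p = 0.00442, adjusted p = 0.151 by limma). Mcm5 had 499, 470, 443 and 424 in the unexposed mice and 536, 695, 534 and 556 in the PEA-exposed mice, also with no overlap (0.33, SE 0.12, adjusted p = 0.230 by limma). Mcm2 and Mcm5 are subunits of 1 ring, and the other 4 subunits had fold changes of 0.19 (Mcm3), -0.04 (Mcm4), -0.10 (Mcm6) and -0.07 (Mcm7). Cdt1 was the most negative of the 40 genes (-0.42, SE 0.24, interval -0.96 to 0.12). It had 54.7 ± 10.5 normalized counts in the unexposed mice and 41.4 ± 13.1 in the PEA-exposed mice (mean ± SD, n = 4 each). With the GC correction described below its fold change was -0.72 (unadjusted p = 0.00631, adjusted p = 0.322 by limma).

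Among the mitotic genes, Aurka, the kinase of spindle poles, had 302, 227, 231 and 214 in the unexposed mice and 295, 396, 315 and 276 in the PEA-exposed mice. Unexposed mouse 1 overlapped with the exposed values (0.39, SE 0.15, adjusted p = 0.274 by limma). Ccnb2, a B-type cyclin, had 281, 246, 259 and 245 in the unexposed mice and 322, 288, 299 and 317 in the PEA-exposed mice, with no overlap (0.25, SE 0.10, adjusted p = 0.301 by limma), while Ccnb1, its close relative, had a fold change of -0.05. Mcm2, Mcm5 and Ccnb2 were the 3 genes whose groups did not overlap, all with the exposed mice higher, as were 5.46% of all genes tested, and with the exposed mice lower 3.86% were. The genes of the anaphase-promoting machinery, Cdc20 (0.27, SE 0.17) and Ube2c (0.21, SE 0.18), had their highest values in PEA-exposed mouse 2. By role, fold changes ranged for the 6 spindle genes from -0.12 (Tpx2) to 0.03 (Kif23), for the centromere genes from -0.18 (Cenpe) to 0.10 (Cenpa), for the synthesis genes from -0.20 (Pcna) to 0.31 (Uhrf1), and for the mitotic kinases and checkpoint genes from -0.18 (Bub1b) to the 0.39 of Aurka. PEA-exposed mouse 2 had the highest value of its group for 18 of the 40 genes, and unexposed mouse 4 the lowest of its group for 19.

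Fold changes in the PEA experiment ran with the GC content of the transcripts. Over the 17209 genes with a GC value, the median fold change rose from -0.20 below 40% GC to 0.35 above 60%, and over the 40 proliferation genes, from 39.8% GC (Bub1) to 59.0% (Cdt1), the Spearman rho was 0.46 (a description, with no test, of genes measured in the same 8 mice). Of the 4 genes above, Mcm2 has 58.0% GC, Mcm5 53.2%, Aurka 52.1% and Ccnb2 49.3%. The deviations of single libraries correlated with GC at -0.22 to -0.12 in the unexposed mice, and at -0.06, 0.43, 0.16 and 0.19 in PEA-exposed mice 1 to 4. With the median deviation of 20 GC classes taken out of each mouse, a correction chosen after seeing the data, the fold change of Mcm2 was 0.08, that of Mcm5 0.27, Aurka 0.37, Ccnb2 0.31, Pcna -0.04, Mki67 -0.14 and Top2a 0.11, so that Top2a changed sign. Cdt1, with the highest GC content of the 40, went from -0.42 to -0.72. The median over the 40 genes then was 0.10, none was called, and 4 were higher and 1 (Cdt1) lower at an unadjusted p under 0.05, where 5.42% and 4.44% of all genes were. In the Kir2.1 experiment the rho over the 40 genes was -0.25. Of the 9 globose basal markers (median 0.01 after PEA exposure), 1 was higher and 1 lower at an unadjusted p under 0.05. After the GC correction 0 were higher and 3 lower, and none was called. At that level in both fits, 2 of 5 horizontal basal and 2 of 7 sustentacular markers were higher, and 2 of 9 mesenchyme and cartilage markers lower. Over all genes, 8.93% were higher and 6.04% lower before the correction.

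**Figure D3:**
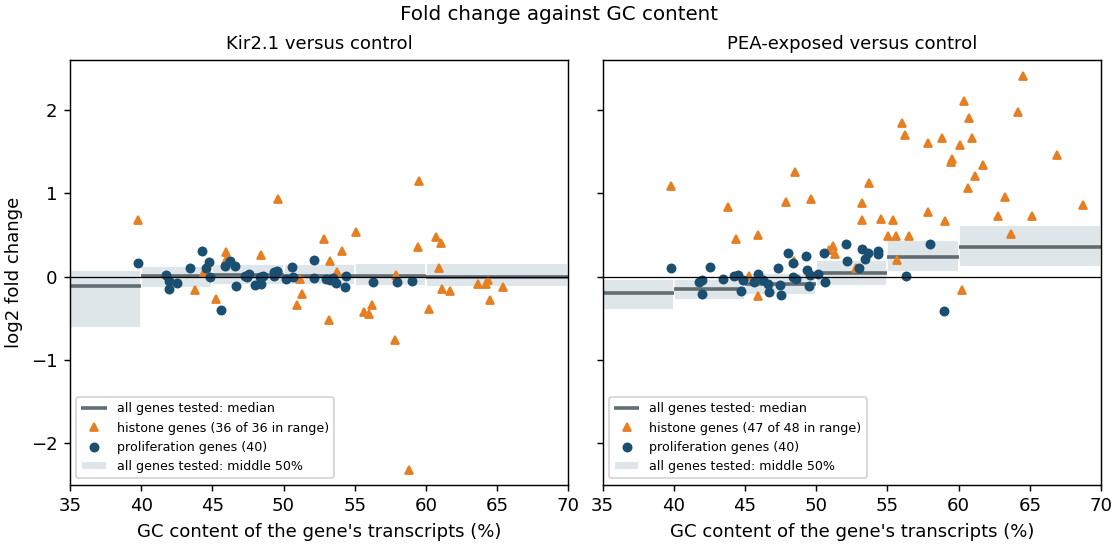
Log2 fold change (vertical axis) against the GC content of each gene's transcripts in percent (horizontal axis) in both comparisons. Circles are the 40 proliferation genes and triangles the listed histone genes. Grey bars and lines are the middle 50% and median of all genes tested in each GC class. In the PEA experiment the medians climb from -0.20 to 0.35, and 1 histone gene (H3c14) lies outside the range shown.

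Other genes of the cell cycle, from lists that hold none of the 40, gave no call in either comparison. In the Kir2.1 experiment, 0 of 35 further replication genes were higher and 1 was lower at an unadjusted p under 0.05, 2 of 49 mitosis genes were higher and 0 lower, 0 of 21 regulators (D cyclins, E2F factors and the like) had such a p, and of 9 inhibitors tested 2 were higher and 1 lower. Over all genes tested, 4.93% were higher and 6.20% lower at that level. The median fold changes of these lists were -0.02, 0.06, 0.01 and 0.11. The replication gene was Dut, which clears dUTP (-0.31, SE 0.09, adjusted p = 0.237), followed by Orc1 (-1.30, SE 0.57) and Pola2 (-0.21, SE 0.10). The mitosis genes with the smallest p were Melk (0.23, SE 0.09), Pttg1, the securin (0.27, SE 0.11), and Spc25 (0.20, SE 0.10), and the regulators Mycn (-0.20, SE 0.15), Mybl2 (-0.25, SE 0.19) and Cdk6 (0.12, SE 0.10). Among the inhibitors were Rbl2, a relative of the retinoblastoma protein (0.27, SE 0.07, adjusted p = 0.221), Cdkn1c (0.36, SE 0.10, adjusted p = 0.234) and Cdkn1a (-0.15, SE 0.06, adjusted p = 0.433, all by limma).

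After PEA exposure, 3 of 35 replication genes were higher and 1 lower at an unadjusted p under 0.05, 4 of 49 mitosis genes were higher and 3 lower, 3 of 21 regulators were higher and 1 lower, and of 8 inhibitors tested 2 were higher and 1 lower. Over all genes tested, 8.93% were higher and 6.04% lower at that level. The list medians were -0.01, 0.01, 0.02 and 0.18. After the GC correction, 1, 4, 1 and 1 genes of these lists were higher and 1 of each lower at that level. Of all genes, 5.42% and 4.44% then were. The corrected list medians were 0.07, 0.09, 0.09 and 0.17. Tk1, the thymidine kinase of S phase, had 106, 113, 131 and 169 in the unexposed mice and 210, 207, 195 and 245 in the PEA-exposed mice (0.74, SE 0.16, adjusted p = 0.108 by limma). Mcm10 (-0.60, SE 0.20) and Pold2 (0.51, SE 0.18) came next. Melk (0.56, SE 0.15) and Bub3, a checkpoint protein (0.36, SE 0.10), were higher and Smc4, a condensin subunit (-0.32, SE 0.10), lower at this unadjusted level. Ccnd3 (0.55, SE 0.12), Mybl2 (0.66, SE 0.18) and Rb1 (-0.32, SE 0.12) led the regulators, and Btg2 (0.33, SE 0.11), Cdkn2d (0.64, SE 0.21) and Cdkn1a (-0.39, SE 0.15) the inhibitors. After the GC correction Melk stood at 0.67, Bub3 at 0.42, Tk1 at 0.54, Ccnd3 at 0.24, Pold2 at 0.21, Smc4 at -0.12 and Rb1 at -0.16.

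Replication-dependent histone genes are transcribed in S phase, and their mRNAs mostly lack a poly-A tail. The histone symbols listed here were chosen by name, and which of them are replication-dependent was not tested. For the PEA comparison, 48 of 66 listed histone symbols passed the filter, with a median log2 fold change of 0.85, and 45 were higher and 3 lower. At an unadjusted p under 0.05, 30 were higher and 1 lower, where 8.93% and 6.04% of all genes tested were. None was called (lowest adjusted p = 0.108 by limma). H1f1, a linker histone, had 1016, 881, 887 and 818 in the unexposed mice and 1042, 1951, 1300 and 1691 in the PEA-exposed mice (0.70, SE 0.18, adjusted p = 0.137 by limma). H2bc18 had 812, 861, 565 and 1038 in the unexposed mice and 1175, 1486, 1129 and 1388 in the PEA-exposed mice (0.68, SE 0.18, adjusted p = 0.137 by limma). Both are among the 6 of 48 histone genes whose exposed values all lay above the unexposed ones, where 5.46% of all genes tested did, and 1 histone gene was lower in the same way. H2bc21 had a fold change of 0.01 (SE 0.10), and H3c14 was measured in all 4 unexposed mice, at up to 62.7, and listed at 0 in 3 of the 4 PEA-exposed mice. Histone genes are near copies that share reads, so values of single genes are uncertain.

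The histone symbols summed to 10773, 11997, 10082 and 12344 normalized counts in the unexposed mice and to 12423, 16852, 14363 and 17827 in the PEA-exposed mice, so every exposed mouse lay above every unexposed one in this sum, the closest by a narrow margin. The mean log2 value over the same symbols overlapped, at 4.15, 4.71, 4.15 and 5.09 in the unexposed mice and 4.71, 5.45, 5.19 and 5.68 in the exposed mice. In the same mice the 40 proliferation genes summed to 31695, 31004, 32455 and 30652 and to 31731, 31120, 29541 and 30544. The sum over short noncoding RNAs, most of which also lack poly-A tails and which were chosen as a list after seeing the data, was 462310 to 785657 in the unexposed mice and 831337 to 1215040 in the exposed mice. A few abundant RNAs carried that sum: 3060 of the 3263 listed were at 0 in every mouse, and the 37 tested had a median fold change of 0.05, with 22 higher and 15 lower. After the GC correction the histone median was 0.62, with 21 higher and 1 lower at an unadjusted p under 0.05, and with vomeronasal receptor genes as a covariate 18 of 48 passed that level in either direction, with a median of 0.53. The part of RNA makeup or library preparation in these values was not tested. Leaving out 1 mouse left between 17 and 34 such genes, the fewest without PEA-exposed mouse 4, and 19 each without unexposed mouse 3 or PEA-exposed mouse 2. The share of all genes at that level was not counted with the covariate or with a mouse left out.

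**Figure D4:**
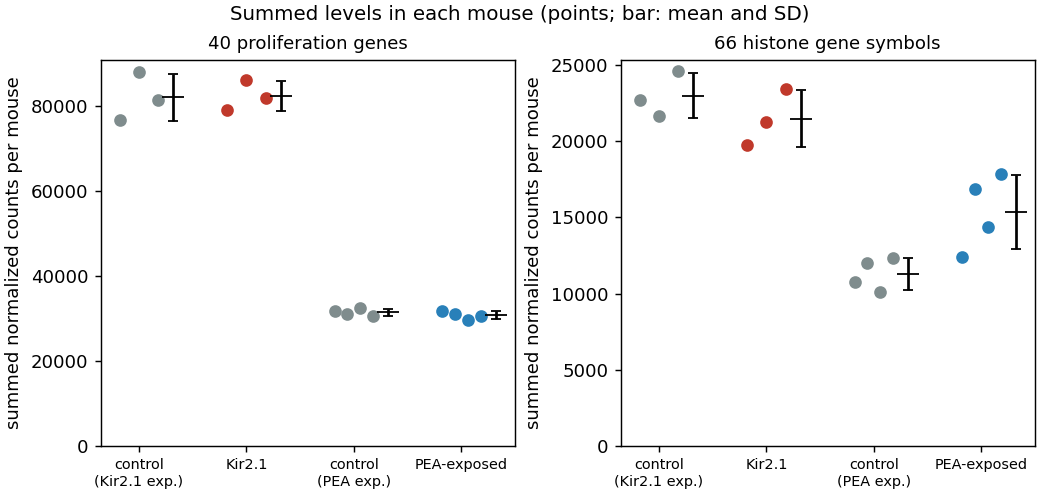
Summed normalized counts (vertical axes, from 0) of the 40 proliferation genes (left) and 66 histone symbols (right) in each mouse (points), by group, with the mean and SD of the group beside them. The PEA-exposed mice lie at 12423 to 17827 for histones, above the unexposed mice at 10082 to 12344, while the sums of the proliferation genes overlap between groups in both experiments; levels are not comparable between experiments.

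In the Kir2.1 experiment, from poly-A selected RNA, 36 of the 66 histone symbols passed the filter, with a median of -0.04. At an unadjusted p under 0.05, 5 were higher and 2 lower, where 4.93% and 6.20% of all genes tested were. H2bc21 had 14750, 13764 and 14214 in the control mice and 10863, 11932 and 12677 in the Kir2.1 mice, with no overlap (-0.27, SE 0.08, adjusted p = 0.256 by limma). H1f2 had 1510, 1626 and 2003 in the control mice and 2160, 2602 and 2637 in the Kir2.1 mice, also with no overlap and in the other direction (0.53, SE 0.13, adjusted p = 0.194 by limma). H2bc21 alone made up most of the histone sum, which was 21677 to 24615 in the control mice and 19761 to 23470 in the Kir2.1 mice.

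The genes whose log2 values followed the mean of the 40 proliferation genes most closely over the mice were, in the Kir2.1 experiment, Pik3r5, Camsap3, Olfr1105, Gm20421, Adck2, Baz1b, Phf21b, Mycl, A130077B15Rik and Mybpc1, with Pearson correlations of 0.98 to 1.00 over 6 mice. Over the 8 mice of the PEA experiment they included Prss12, Nop2, Sac3d1, Rhod, Sh3bp2, Smarcb1, Guk1, Mocos and Ccnq, at 0.95 to 0.98. These are among the highest of 19767 and 17282 correlations over few mice, and none of the genes named is on the other cell cycle lists. The genes named for the PEA experiment had 53.35% to 63.45% GC, beside a median of 49.71% over all genes tested there. The part of GC content in these correlations was not tested. The median correlation with the 40 genes was 0.60 for the other mitosis genes and 0.40 for the other replication genes in the Kir2.1 experiment, and 0.07 for both in the PEA experiment, beside -0.01 and 0.00 over all genes.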

How the data were processed

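Whole olfactory epithelia of 14 mice were sequenced, 1 library a mouse. The authors estimated transcript levels with Salmon 1.3.0 against the mouse transcriptome (GRCm38, called mm10 in their processing notes), with its sequence and GC bias options and a setting for reverse-stranded reads, which the methods also state for the unstranded Kir2.1 libraries, and summed them per gene. The authors scaled the sums with DESeq2 1.30.0. The deposited signal is therefore a scaled estimate for each gene rather than a number of reads (between 4.21% and 14.2% of the values above 0 of a mouse were within 0.01 of a whole multiple of its most frequent low value), so no count test was run. All value columns were matched to mice, leaving 0 unused.

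Genes whose mean reached 10 in an experiment were tested there with limma 3.58.1 (R 4.3.3) on log2(value + 1), with a mean-variance trend and Benjamini-Hochberg adjustment over all genes at 0.05. The test was first run on simulated data. The methods call the Kir2.1 controls littermates, but the labels give no litters, so litter was not modelled. For early odor exposure, the methods place the odor vial in the home cage of mother and pups. The labels give no cages, so in the PEA comparison exposure cannot be told apart from cage or litter. The p-values measure the spread between these mice. By Xist and Ddx3y, 2 of 3 mice were female in each Kir2.1 group, with the same numbers in both, and 2 of 4 unexposed and 3 of 4 PEA-exposed mice were female. Values were given for Mki67, Top2a, Pcna and Cdk1, for the 5 proliferation genes with the smallest p in each comparison and for the 3 genes with the smallest p of each other cell cycle list. The 40 genes, the lists and the tests were chosen with earlier results of these data known. Histone and marker genes named beyond these were chosen after their values were seen. Positions, GC content and exon lengths came from GENCODE vM21 transcripts, with older symbols matched through RefSeq. Alternatives were pseudocounts of 0.5 and 5, the filter dropped or raised to 50, quantile normalization, median centring, no trend, robust moderation, a replicate block, covariates for vomeronasal genes and Xist, and each mouse left out, and a GC correction was added later. Python 3.11.15, numpy 2.4.6, pandas 2.3.3 and matplotlib 3.10.9 did the rest. Some results are not reported here.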

Additional observations from a re-analysis of the deposited data

Results flagged for a closer look

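Of 84 groups of 4 mice examined in the PEA experiment (the 40 genes, their mean and the histone sum, in 2 groups), 5 held a mouse far from the other 3, where about 1 in 20 would by chance alone. PEA-exposed mouse 2 was the highest for Cdt1, at 60.9 normalized counts against 33.3 to 35.8 in the other 3, and for Mcm5, at 695 against 534 to 556. PEA-exposed mouse 3 was the highest for Mcm4, at 737 against 575 to 598. PEA-exposed mouse 1 was the lowest for Rrm2, at 380 against 402 to 404, and unexposed mouse 4 the highest for Bub1b, at 843 against 539 to 558. Without PEA-exposed mouse 2, the fold change of Mcm5 was 0.24 and 4 proliferation genes had an unadjusted p under 0.05.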

How the results depend on the processing

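The count of proliferation genes called stayed at 0 in both comparisons under every alternative run, 18 in the Kir2.1 experiment and 20 in the PEA experiment. Their number at an unadjusted p under 0.05 was 2 in the Kir2.1 experiment, from 2 to 3 with each mouse left out and 4 with the GC correction, and 4 in the PEA experiment, from 2 to 6 with each mouse left out. Their median fold change ran from -0.02 to 0.06 and from -0.01 to 0.06 with each mouse left out, and was 0.10 in the PEA experiment with the GC correction. The number of all genes called was less stable. In the Kir2.1 experiment it was 70, but 20 without the trend, 9 with the replicate block, 23 with the vomeronasal covariate, 44 with the Xist covariate and 23 to 44 with each mouse left out. In the PEA experiment it was 31, but 52 with no filter, 19 with the vomeronasal covariate and 19 to 43 with each mouse left out. Histone genes at an unadjusted p under 0.05 numbered 31 in the PEA experiment, 18 with the vomeronasal covariate and 17 to 34 with each mouse left out, and their median stayed between 0.53 and 1.17. The causes of these shifts were not tested, beyond the smaller groups of the fits that leave out a mouse. The share of all genes at an unadjusted p under 0.05 was counted only in the main fit and with the GC correction. Counts at that level under the other alternatives thus have no such share beside them. Named genes gave 854 values over 45 pairs of a gene and a comparison, some genes being named in both comparisons. Of these values, 847 moved by less than 1 within-group SD. The other 7 were 6 GC-corrected values in the PEA experiment and Cdkn1a under median centring.

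The deviations of same-numbered mice had correlations of -0.06, -0.01 and 0.16 in the Kir2.1 experiment and 0.13, -0.02, -0.05 and 0.10 in the PEA experiment. Differently numbered mice were not compared, so these values cannot decide whether the numbers pair the mice. With the replicate block, 3 proliferation genes had an unadjusted p under 0.05 in each experiment and 0 were called. Depth cannot be read from the deposited values, so no floor is given.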
